A study of Arabidopsis thaliana with 9 samples.

Results

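The proteolytic core of the chloroplast Clp protease was followed through its 9 genes, taken by identifier from the deposited table: the plastid gene CLPP1 (ATCG00670) and the nuclear genes CLPP3 (AT1G66670), CLPP4 (AT5G45390), CLPP5 (AT1G02560), CLPP6 (AT1G11750), CLPR1 (AT1G49970), CLPR2 (AT1G12410), CLPR3 (AT1G09130) and CLPR4 (AT4G17040). They are 9 of the 22254 genes in the table, and all 9 were among the 20294 genes tested after a filter on low counts, with 1928 to 8197 counts in a library. RNA came from whole Arabidopsis thaliana seedlings of 3 genotypes, each with 3 libraries: clpp2-2 and clpp2-1, which are separate knock-out mutants of the mitochondrial protease subunit CLPP2 (AT5G23140), and the wild type (wt) Columbia-0, the background in which both were made. All seedlings were 2 weeks old and had been shaken in liquid medium, with nights of 8 h at 18 °C and days of 16 h at 22 °C at a light intensity of 150 µmol m-2 s-1. The labels do not state the kind of mutation in each line or whether replicates were separate cultures, so the p-values speak only for the spread among these libraries, which may be technical. Chloroplast Clp genes were not the target of the mutations, and the comparison asks how their transcripts stood when CLPP2 transcripts were reduced.

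The Clp protease of the chloroplast stroma degrades unfolded, damaged or surplus proteins and is needed for chloroplast development. Its core is a closed barrel of stacked rings: in plants the CLPP3, CLPP4, CLPP5 and CLPP6 subunits form one ring, and the plastid-encoded CLPP1 with CLPR1 to CLPR4 the other. CLPP subunits carry a catalytic serine, whereas CLPR subunits keep the fold without the catalytic residues. Ring-shaped CLPC and CLPD chaperones unfold substrates and thread them into the barrel. CLPP2 is the proteolytic subunit of the separate Clp protease of the mitochondrial matrix.

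Each codon below is the one aligned with that of the catalytic serine, within its 33-base coding context, because it is the difference that separates the CLPP from the CLPR subunits. Sequences are 5′ to 3′ on the coding strand of RefSeq TAIR10.1, and capitals mark the codon.
CLPP1: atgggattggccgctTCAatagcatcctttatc
CLPP3: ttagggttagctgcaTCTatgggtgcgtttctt
CLPP4: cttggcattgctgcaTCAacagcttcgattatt
CLPP5: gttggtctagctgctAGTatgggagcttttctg
CLPP6: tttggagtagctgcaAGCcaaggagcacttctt
CLPR1: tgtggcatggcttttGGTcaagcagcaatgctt
CLPR2: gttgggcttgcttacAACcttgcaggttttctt
CLPR3: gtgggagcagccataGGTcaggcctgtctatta
CLPR4: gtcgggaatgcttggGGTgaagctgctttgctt
CLPP2: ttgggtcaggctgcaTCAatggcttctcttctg
A serine codon stood at this place in CLPP1, CLPP3, CLPP4, CLPP5, CLPP6 and the mitochondrial CLPP2. In the 4 CLPR genes the aligned codon was no serine codon. The CLPP1 window lies on the minus strand of the plastid genome at positions 70698 to 70730, and the CLPP5 window is the only one that runs across an intron, at chr1:538992-539270 on the plus strand. The other windows lie at chr1:24864593-24864625 (minus) in CLPP3, chr5:18397164-18397196 (plus) in CLPP4 and chr1:3968811-3968843 (plus) in CLPP6. Those of the CLPR genes lie at chr1:18502603-18502635 (minus) in CLPR1, chr1:4224297-4224329 (plus) in CLPR2, chr1:2941007-2941039 (minus) in CLPR3 and chr4:9587682-9587714 (minus) in CLPR4.

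The plastid CLPP1 gene spans positions 69910 to 71882 in 3 exons with 591 coding bases. Its last exon has a copy of 93.9% identity over 228 bases in a stretch of nuclear chromosome 2 with no annotated gene, chr2:2282569-2282795, so a few reads could be shared between them. The 8 nuclear genes carry 3 to 10 exons and lie on chromosomes 1 (CLPP3, CLPP5, CLPP6, CLPR1, CLPR2 and CLPR3), 4 (CLPR4) and 5 (CLPP4).

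The label of the mutants was checked on CLPP2 itself. CLPP2 stood at 4.64, 4.64 and 4.52 CPM in the clpp2-2 libraries and at 5.72, 4.88 and 6.08 CPM in the clpp2-1 libraries, against 44.5, 46.5 and 42.9 CPM in the wild-type libraries, where CPM is the count scaled to the library size and edgeR's TMM factor. It fell by 3.28 on the log2 scale in clpp2-2 (SE 0.09, adjusted p = 1.26e-06) and by 3.00 in clpp2-1 (SE 0.08, adjusted p = 2.26e-06; edgeR quasi-likelihood test, Benjamini-Hochberg adjustment over all genes). Library totals lay between 36043744 and 36477053. The summed leaf markers RBCS1A, CAB1 and RCA took 19970 to 26260 CPM in clpp2-2, 16830 to 18220 in clpp2-1 and 14270 to 21960 in the wild type, and 3 root markers summed to 9.29 to 20.7 CPM over all libraries. Flower markers did not exceed 2.21 CPM in any library. Some libraries stood apart from their genotype. The library wt 2 had the highest leaf marker sum of the wild type, and 8 seed storage genes summed to 13.1, 2.67 and 0.896 CPM in the clpp2-1 libraries and 108, 23.7 and 0.377 CPM in the wild-type libraries, with at most 1.13 CPM in clpp2-2. Results that rest on these libraries are given with and without them. In whole seedlings, fewer cells of a kind and less RNA per cell cannot be told apart.

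Few changes were called in the core. CLPP1 was the only member whose transcripts rose in clpp2-2, by 1.37-fold, and no member rose or fell in clpp2-1 or differed between the lines at an edgeR adjusted p under 0.05, the threshold for every use of rose, fell or called below. Of all genes tested, 9.98% were called in clpp2-2 (5.47% higher), 0.177% in clpp2-1 and 4.06% in clpp2-2 against clpp2-1 (2.41% higher). Set against the 9.98% background, 1 of 9 members is a like share. The median log2 change over the 9 members was 0.13 in clpp2-2 and 0.08 in clpp2-1, beside -0.01 and 0.00 over all genes tested. By edgeR at an unadjusted p under 0.05 there were 3 members in clpp2-2, 0 in clpp2-1 and 2 between the lines. The share of all genes at that unadjusted threshold was not counted, so unadjusted counts here and below have no background. The DESeq2 Wald test called 3, 0 and 2 members in these comparisons, beside 16.2%, 0.41% and 8.1% of all genes. All of these member calls were higher, and DESeq2 called 8.8%, 0.299% and 4.74% of all genes higher. Limma-voom called 1, 0 and 0 members, beside 9.72% (5.64% higher), 0.143% and 4.02% of all genes. Both mutant comparisons share the same 3 wild-type libraries.

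**Figure D1:**
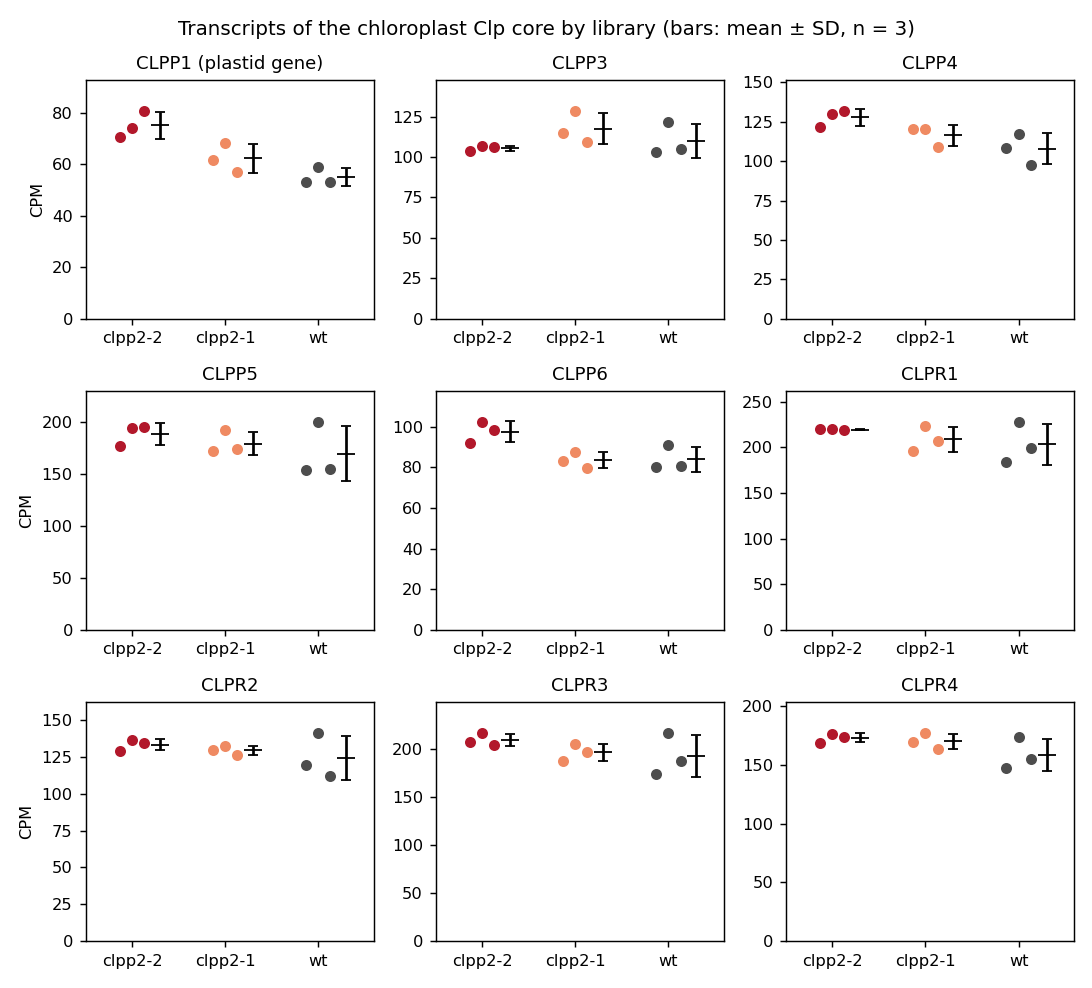
CPM of each core gene (vertical axis) in the 3 libraries of clpp2-2, clpp2-1 and wt (points), with mean ± SD beside them. CLPP1, CLPP4 and CLPP6 are the panels in which every clpp2-2 library stood above every wt library, as in 17.0% of all genes tested.

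CLPP1 is the one core subunit translated inside the chloroplast. It had 70.6, 74.1 and 80.8 CPM in the clpp2-2 libraries, 61.8, 68.3 and 56.9 CPM in the clpp2-1 libraries and 53.2, 59.0 and 53.0 CPM in the wild-type libraries. All clpp2-2 libraries lay above all wild-type and all clpp2-1 libraries, while clpp2-1 and the wild type overlapped. Of all genes tested, 17.0% were so separated above the wild type and 15.7% above clpp2-1. Its level averaged 75.2 ± 5.15 CPM in clpp2-2, 62.4 ± 5.72 in clpp2-1 and 55.1 ± 3.38 in the wild type (SD, n = 3 each). In clpp2-2 the fitted change was 0.45 on the log2 scale (SE 0.08, 95% interval 0.27 to 0.63, edgeR adjusted p = 0.0145). In clpp2-1 it was 0.18 (95% interval -0.003 to 0.362, edgeR adjusted p = 0.77). The difference between the lines themselves was 0.27 (95% interval 0.09 to 0.45) and did not pass (edgeR adjusted p = 0.102). The call in clpp2-2 was lost when some single libraries were left out, while the size of the change moved little. Without wt 1, wt 3 or clpp2-2 3 the log2 change was 0.43, 0.43 and 0.40. The edgeR adjusted p was 0.0557, 0.0619 and 0.0509. In these settings edgeR called 760, 627 and 568 of all genes in clpp2-2, against 2025 with all 9 libraries.

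CLPP1 lay in the middle of the plastid-encoded genes. Of 77 plastid-encoded genes tested, 73 had a positive fitted change in clpp2-2, with a median log2 change of 0.41, and 21 (27.3%) were called higher. CLPP1 ranked 36 of these 77 from the top in clpp2-2 and 42 in clpp2-1, where the median was 0.20. As a share of plastid-encoded counts CLPP1 took 1.45, 1.42 and 1.38% in clpp2-2, 1.37, 1.36 and 1.52% in clpp2-1 and 1.29, 1.38 and 1.53% in the wild type. The groups overlapped fully in this share. It averaged 1.417 ± 0.0328% in clpp2-2, 1.417 ± 0.0894% in clpp2-1 and 1.399 ± 0.12% in the wild type (SD, n = 3 each). Against the wild type the exact permutation p (two-sided) was 0.8 for clpp2-2 and 1.0 for clpp2-1, in a design whose smallest possible p is 0.1. Plastid genes together made up 0.488 to 0.5695% of all counts in clpp2-2, 0.379 to 0.5065% in clpp2-1 and 0.3555 to 0.423% in the wild type. Libraries were made from total RNA with random hexamers, and whether a poly(A) selection came first is not stated in the labels.

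**Figure D2:**
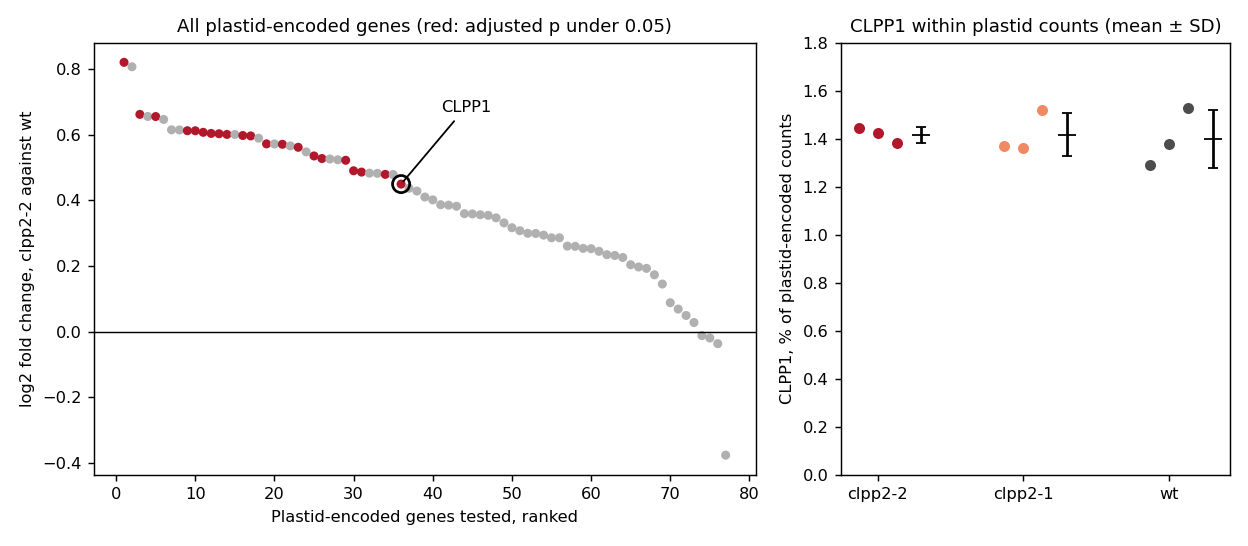
Left, fitted log2 fold change in clpp2-2 against wt (vertical axis) of the 77 plastid-encoded genes tested, ranked from high to low, with the 21 called genes in red and CLPP1 circled at rank 36. Right, CLPP1 as a percentage of plastid-encoded counts by library with mean ± SD, where the 3 genotypes overlap.

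Genes next to CLPP1 on the plastid chromosome, a list of 7, had positive changes in clpp2-2 throughout. They ran from 0.26 to 0.65 on the log2 scale with a median of 0.57. Counts were low for ATCG00690, ATCG00700 and ATCG00710, which averaged 1.20, 1.19 and 1.53 CPM in clpp2-2. In the wild type they averaged 0.77, 0.78 and 1.03 CPM. Of all plastid-encoded genes tested, 73 of 77 were positive in clpp2-2, with a median of 0.41. Among the 7 neighbours 1, ATCG00680, was called (0.48, edgeR adjusted p = 0.0357). Beside it, 27.3% of the plastid-encoded genes and 5.47% of all genes were called higher. DESeq2 called 3 of the 7 higher and limma-voom 1, beside 8.8% and 5.64% of all genes. By edgeR 5 of the 7 had an unadjusted p under 0.05. In clpp2-1 the changes of the 7 ran from 0.01 to 0.27. None was called by edgeR, DESeq2 or limma-voom, with 1 at an unadjusted edgeR p under 0.05.

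Of the nuclear-encoded catalytic subunits, CLPP4 and CLPP6 stood higher in every clpp2-2 library than in every wild-type library, as did 17.0% of all genes tested. CLPP3 and CLPP5 overlapped the wild type, and edgeR called none of the 4. DESeq2 called CLPP4 and CLPP6 in clpp2-2. CLPP4 had 121.8, 130.2 and 131.9 CPM in clpp2-2, 120.3, 120.1 and 108.9 CPM in clpp2-1 and 108.4, 117.3 and 97.8 CPM in the wild type. Its log2 change in clpp2-2 was 0.25 (SE 0.07, 95% interval 0.08 to 0.41), short of the threshold (edgeR adjusted p = 0.0653). In clpp2-1 it was 0.11 (edgeR adjusted p = 0.79). CLPP6 had 91.8, 102.3 and 98.6 CPM in clpp2-2, 83.0, 87.5 and 79.7 CPM in clpp2-1 and 79.9, 90.9 and 80.8 CPM in the wild type. Its clpp2-1 and wild-type levels overlapped, with means of 83.4 ± 3.92 and 83.8 ± 6.11 CPM (SD, n = 3 each). Its log2 change was 0.22 in clpp2-2 (95% interval 0.07 to 0.37, edgeR adjusted p = 0.0695), -0.01 in clpp2-1 and 0.23 between the lines (95% interval 0.08 to 0.38, edgeR adjusted p = 0.0981).

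CLPP3 was lower in every clpp2-2 library than in every clpp2-1 library, as were 15.8% of all genes tested, and the difference did not pass. It had 103.5, 106.6 and 105.9 CPM in clpp2-2, 114.9, 128.5 and 109.4 CPM in clpp2-1 and 103.0, 121.9 and 105.1 CPM in the wild type. The log2 difference between the lines was -0.16 (95% interval -0.34 to 0.02, edgeR adjusted p = 0.288). Against the wild type its change was -0.06 in clpp2-2 and 0.10 in clpp2-1, neither of which passed. CLPP5 had 176.3, 194.2 and 194.8 CPM in clpp2-2, 171.8, 191.9 and 173.7 CPM in clpp2-1 and 153.9, 199.8 and 154.8 CPM in the wild type. The wild-type libraries of CLPP5 spanned those of both mutants at the top through wt 2, and its log2 changes of 0.15 and 0.08 in clpp2-2 and clpp2-1 did not pass (edgeR adjusted p = 0.36 and 0.877).

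None of the 4 genes for the non-catalytic CLPR subunits was called in either line. CLPR1 had 220.0, 219.7 and 218.6 CPM in clpp2-2, 196.2, 223.5 and 206.6 CPM in clpp2-1 and 183.8, 227.8 and 198.9 CPM in the wild type. CLPR3, in the same ring, had 208.0, 216.9 and 204.7 CPM in clpp2-2, 188.0, 205.7 and 197.4 CPM in clpp2-1 and 174.4, 216.9 and 187.4 CPM in the wild type. In both genes the clpp2-2 libraries lay within the range of the wild type or level with its top. CLPR2 had 129.0, 136.6 and 134.4 CPM in clpp2-2, 129.6, 132.7 and 126.4 CPM in clpp2-1 and 119.6, 141.2 and 112.0 CPM in the wild type. CLPR4 had 169.1, 176.8 and 173.9 CPM in clpp2-2, 169.4, 177.1 and 163.8 CPM in clpp2-1 and 147.5, 173.5 and 154.9 CPM in the wild type. The 3 genotypes overlapped in all 4 CLPR genes. Their log2 changes ran from 0.10 (CLPR2) to 0.13 (CLPR4) in clpp2-2, where CLPR4 had the narrowest interval, -0.02 to 0.27. In clpp2-1 they ran from 0.03 (CLPR3) to 0.10 (CLPR4), and no upper bound of the 4 intervals exceeded 0.245.

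**Figure D3:**
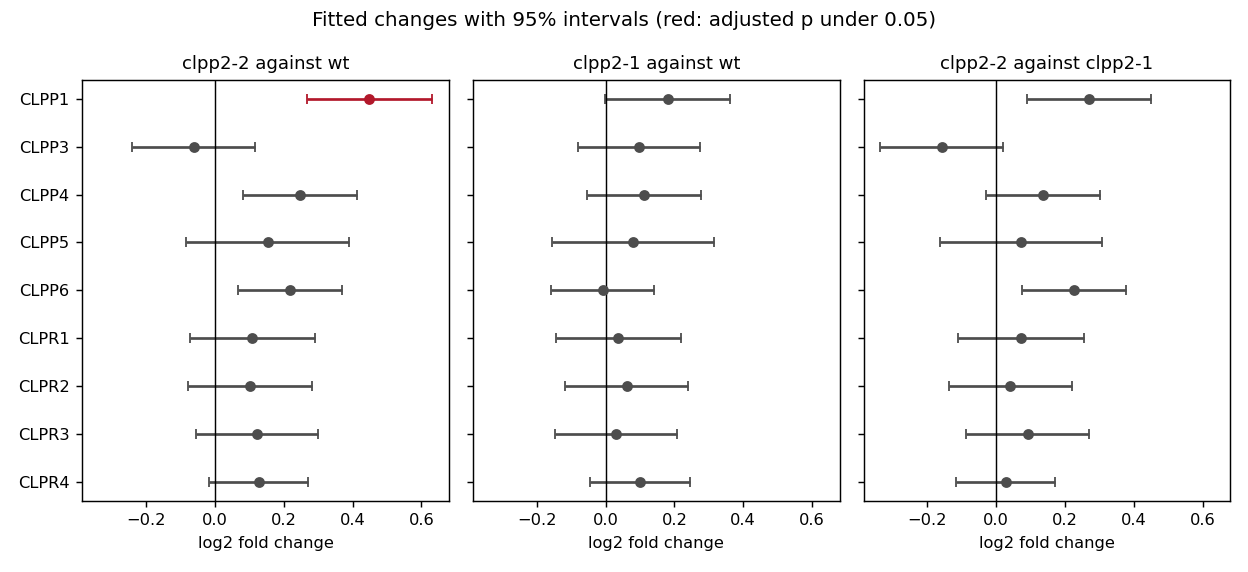
Fitted log2 fold changes of the 9 core genes with 95% intervals (horizontal axis) for clpp2-2 against wt, clpp2-1 against wt and clpp2-2 against clpp2-1. Red marks an adjusted p under 0.05, reached by CLPP1 in clpp2-2 at 0.45; the 95% intervals are not adjusted for the number of genes.

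Counted by complete separation, CLPP1, CLPP4 and CLPP6 (3 of 9) had every clpp2-2 library above every wild-type library, as did 17.0% of all genes tested, and none had every library below, as 16.7% of all genes did. No member had all 6 mutant libraries beyond the wild type (2.47% of all genes above, 2.13% below). No member was separated in this way in clpp2-1 against the wild type, where 5.17% of all genes lay above and 4.44% below. Between the lines CLPP1, CLPP4 and CLPP6 lay above and CLPP3 below in clpp2-2, against backgrounds of 15.7% and 15.8%. When the mean of both lines was set against the wild type, edgeR called 1.04% of all genes (0.705% higher) and 0 of 9 members. There, 2 members had an unadjusted edgeR p under 0.05. DESeq2 called 1 member, as higher, beside 5.77% of all genes (3.1% higher). Limma-voom called 0, beside 0.956% of all genes. The largest changes of that mean were 0.31 for CLPP1 (95% interval 0.15 to 0.47, edgeR adjusted p = 0.0863) and 0.18 for CLPP4 (95% interval 0.03 to 0.32, edgeR adjusted p = 0.18).

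In edgeR, whether nuclear members were called in clpp2-2 turned largely on 1 wild-type library, wt 2. In all 8 nuclear core genes wt 2 was the highest wild-type library, by a mean of 0.16 on the log2 scale above its genotype mean, while wt 1 and wt 3 lay 0.09 and 0.08 below. The same library carried 21960 CPM of leaf markers, against 16550 in wt 1 and 14270 in wt 3, and it was the highest wild-type library for all 7 Clp partner genes described below. In clpp2-1 the leaf marker sum was highest in clpp2-1 1 (18220 CPM, against 17920 in clpp2-1 2). There, 7 of 8 nuclear core genes were highest in clpp2-1 2. In clpp2-2 the library clpp2-2 1 was lowest in leaf markers and in the mean of the nuclear core genes. The part of leaf RNA in the core levels was not tested. Since wt 2 was the highest wild-type library in these genes, leaving it out raises their changes, and the counts without it follow partly from that choice. Without wt 1 or without wt 3, edgeR called 0 of 9 members in clpp2-2, where 1.97% and 1.91% of all genes were called higher. Without wt 2, 7 of 9 members rose in clpp2-2, where 10.8% of all genes were called higher. They were CLPP1 (0.50), CLPP4 (0.32), CLPP5 (0.29), CLPP6 (0.28), CLPR3 (0.22), CLPR2 (0.21) and CLPR4 (0.20), whereas CLPP3 stood at 0.02 and CLPR1 missed the threshold (edgeR adjusted p = 0.0596). In the same setting CLPP1, CLPP4, CLPP5, CLPR2 and CLPR4 rose in the mean of both lines (5 of 9, background 5.11% higher). There CLPP6 was the 1 member called higher in clpp2-2 than in clpp2-1 (background 4.72%). The library wt 2 is in neither group of that comparison, and the log2 change was 0.235 without it and 0.227 with it. What changed was the joint fit, in which all 3 genotypes share 1 estimate of spread. Leaving out wt 1 and clpp2-1 1 together, which carried the most seed storage RNA of each genotype, left no member called in clpp2-2, with CLPP1 at 0.43 (edgeR adjusted p = 0.0794).

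**Figure D4:**
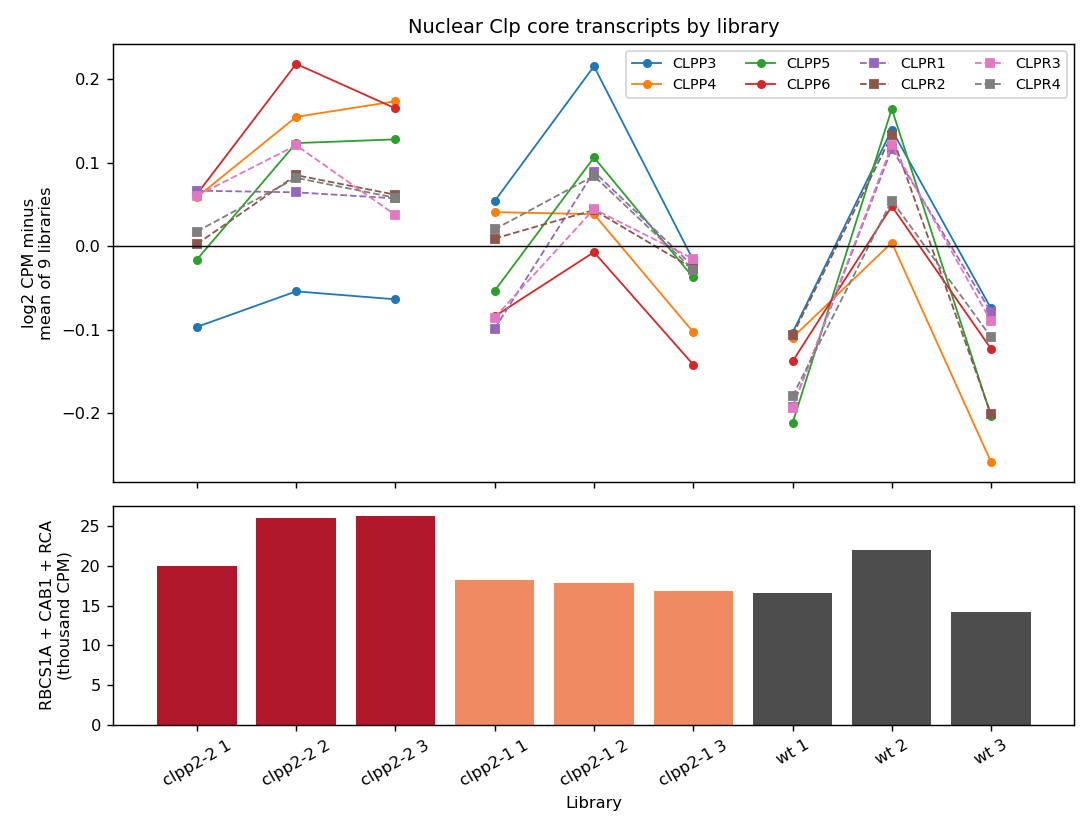
Top, log2 CPM of the 8 nuclear core genes in each library minus the gene's mean over 9 libraries; the lines join genes for the eye only. Bottom, summed CPM (axis in kilo-CPM) of the leaf markers RBCS1A, CAB1 and RCA per library. In both panels wt 2 stands above wt 1 and wt 3. In clpp2-1 most core genes are highest in clpp2-1 2 and the leaf markers in clpp2-1 1.

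Levels of most nuclear members were correlated from library to library. Over the 9 libraries Pearson's r of log2 CPM between the 28 pairs of nuclear members had a median of 0.78, from -0.02 for CLPP3 with CLPP6 to 0.97 for CLPR1 with CLPR3. After each genotype's mean was subtracted the median was 0.86 and the lowest pair, CLPP4 with CLPR1, was 0.40. For CLPP3 with CLPP6, r was 0.89 once the genotype means were subtracted. For CLPP1 with the 8 nuclear members the median r over the 9 libraries was 0.69, from 0.03 with CLPP3 to 0.92 with CLPP4. Once genotype means were subtracted the median was 0.75, from 0.47 with CLPR3 to 0.85 with CLPP3. These values describe libraries that share their depth and normalization within a library. The same r was not computed for pairs of other genes. CLPP1, at r = 0.78 with the mean of the 8 nuclear members, ranked only 1349, so many other genes followed that mean more closely. Within the wild type, wt 2 was the highest library in all 8 nuclear members.

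The order of transcript levels within the core was nearly the same in each genotype once scaled to CPM per kilobase of the longest annotated transcript. In clpp2-2 the mean levels were 144.9 for CLPR3, 127.4 for CLPR1, 127.4 for CLPP5, 127.2 for CLPP1, 110.3 for CLPR2, 103.0 for CLPR4, 95.6 for CLPP4, 75.6 for CLPP3 and 72.9 for CLPP6. In the wild type they were 133.2 ± 15.02 for CLPR3, 118.2 ± 12.97 for CLPR1, 114.6 ± 17.8 for CLPP5, 102.8 ± 12.5 for CLPR2, 94.3 ± 7.97 for CLPR4, 93.2 ± 5.72 for CLPP1, 80.6 ± 7.31 for CLPP4, 79.0 ± 7.46 for CLPP3 and 62.7 ± 4.57 for CLPP6 (SD, n = 3). In the wild type neighbours in this order overlapped in their libraries, except CLPP1 above CLPP4 and CLPP3 above CLPP6. Within libraries CLPR3 stood above CLPR1, CLPP5 above CLPR2, CLPR2 above CLPR4, CLPP1 above CLPP4 and CLPP3 above CLPP6 in 9 of 9. The other neighbours changed places, with CLPP4 above CLPP3 in 7 of 9 libraries, CLPR1 above CLPP5 in 5 and CLPR4 above CLPP1 in 3. CLPP1 shifted most, to rank 4 in clpp2-2 and rank 5 in clpp2-1, against rank 6 in the wild type. CLPR2 stood at rank 5 in clpp2-2, against rank 4 in the wild type. CLPR4 stood at rank 6 in both lines, against rank 5 in the wild type. The annotated length of CLPP1 holds coding bases only, and those of the nuclear genes hold untranslated regions too, so its height among them is less certain than its shift.

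**Figure D5:**
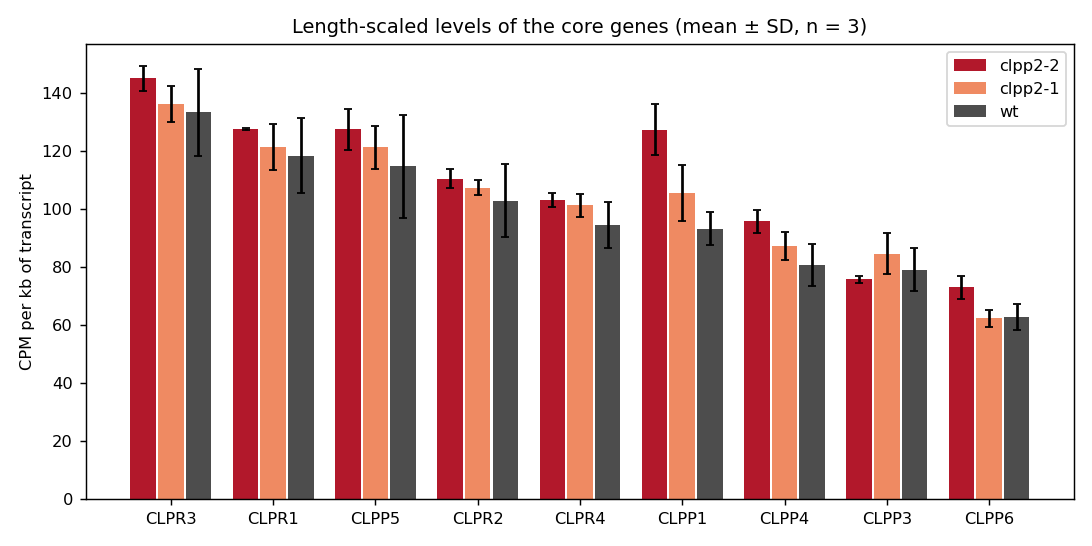
Mean CPM per kilobase of the longest annotated transcript (vertical axis, bars start at 0, error bars SD, n = 3) for the 9 core genes in clpp2-2, clpp2-1 and wt, ordered by the wt mean. CLPP1 shows the widest step between genotypes, at 127.2 in clpp2-2, 105.5 in clpp2-1 and 93.2 in wt.

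Ratios between groups of subunits were formed from the same levels. The summed level per kilobase of CLPP3 to CLPP6 over that of CLPR1 to CLPR4 was 0.738, 0.770 and 0.787 in clpp2-2, 0.776, 0.775 and 0.736 in clpp2-1 and 0.770, 0.754 and 0.730 in the wild type, so the genotypes overlapped; CLPP1 is in neither sum. CLPP1 over the 4 CLPR genes of its own ring was 0.250, 0.253 and 0.283 in clpp2-2, 0.231, 0.238 and 0.210 in clpp2-1 and 0.218, 0.199 and 0.209 in the wild type. In this ratio all clpp2-2 libraries lay above all libraries of clpp2-1 and of the wild type, and clpp2-1 overlapped the wild type. The ratio restates the higher CLPP1 level in clpp2-2. There, 73 of 77 plastid-encoded genes had a positive change (median log2 0.41, CLPP1 at rank 36), beside a median of 0.12 for the 8 nuclear members. The same ratio was not computed for other plastid genes.

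The 250 bases upstream of the annotated start were read for the 8 nuclear members because most of these genes were correlated over the libraries. Windows were searched on both strands for the site II element, written TGGGCC or TGGGCT, which is known from promoters of plant genes for ribosomal, cell cycle and organelle proteins. It occurred in 5 of 8 members (CLPP4, CLPP5, CLPP6, CLPR3 and CLPR4), and in 19.2% of the 27437 upstream windows of the same length. The I-box GATAAG, an element of light-regulated genes, occurred in 2 of 8 (CLPR1 and CLPR3; 12.3% of windows), CCAATC in 1 of 8 (CLPR2; 10.2%), and CACGTG and AAACCCTA in 0 of 8 (6.5% and 4.5%). None of these motifs contains another. The windows of CLPP3 and of CLPR1 to CLPR4 each overlap another annotated gene, so motifs there cannot be assigned to the core gene alone. CLPP5 and CLPP6 are shown since they held 4 and 3 copies of site II and their windows overlap no other annotated gene. They lie at chr1:537490-537739 and chr1:3967226-3967475 on the plus strand of RefSeq TAIR10.1, and capitals mark site II on either strand.
CLPP5: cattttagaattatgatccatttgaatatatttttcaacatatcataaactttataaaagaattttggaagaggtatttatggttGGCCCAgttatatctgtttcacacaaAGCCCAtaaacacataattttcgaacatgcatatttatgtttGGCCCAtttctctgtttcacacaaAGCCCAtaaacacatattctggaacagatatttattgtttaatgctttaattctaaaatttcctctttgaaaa
CLPP6: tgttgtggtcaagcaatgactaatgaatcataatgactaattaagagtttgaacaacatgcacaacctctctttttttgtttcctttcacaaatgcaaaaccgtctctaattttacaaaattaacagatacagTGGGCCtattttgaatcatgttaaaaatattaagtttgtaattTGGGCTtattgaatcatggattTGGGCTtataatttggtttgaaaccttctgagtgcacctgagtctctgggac
All 4 copies in CLPP5 stand in the same orientation, as GGCCCA and AGCCCA in turn. The bases around the AGCCCA copies repeat, so the 4 may not be separate occurrences. The presence of these letters is a description and shows no binding.

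Partners of the core were read from a list of 7 genes. In clpp2-2 edgeR called 1 of 7 higher, DESeq2 4 and limma-voom 2, against 5.47%, 8.8% and 5.64% of all genes called higher. All 7 had a positive change, as did 48.0% of all genes, and the median of the 7 was 0.19 on the log2 scale. The library wt 2 was the highest of the wild type for all 7, so a count without it follows partly from that choice. Without wt 2, edgeR called 5 of 7 higher, against 10.8% of all genes. The one that rose was the Clp ATPase AT3G48870, a ClpC-type chaperone, with 229.6, 213.8 and 225.2 CPM in clpp2-2, 181.3, 211.6 and 202.1 CPM in clpp2-1 and 190.4, 193.8 and 173.9 CPM in the wild type. Its log2 change was 0.26 in clpp2-2 (SE 0.07, edgeR adjusted p = 0.0473) and 0.09 in clpp2-1 (edgeR adjusted p = 0.797). The call was lost in 10 of 18 alternatives, among them leaving out wt 1, wt 3, clpp2-1 3 or any clpp2-2 library, with an adjusted p up to 0.139. CLPC1 (AT5G50920), the main stromal Clp chaperone, averaged 1636 ± 25.3 CPM in clpp2-2, 1472 ± 76.1 in clpp2-1 and 1411 ± 162 in the wild type (SD, n = 3 each), and its change of 0.21 in clpp2-2 did not pass (edgeR adjusted p = 0.13). The uvrB/uvrC motif protein gene AT2G03390 had 40.8, 45.5 and 49.7 CPM in clpp2-2, 32.2, 34.9 and 20.9 CPM in clpp2-1 and 29.8, 30.1 and 22.8 CPM in the wild type. All its clpp2-2 libraries lay above all others, where 17.0% of all genes lay so above the wild type and 15.7% above clpp2-1. Its log2 change of 0.72 in clpp2-2 just missed the threshold (edgeR adjusted p = 0.0516), which it passed in 8 of 18 alternatives. The chaperone gene CLPD (AT5G51070), the double Clp-N motif genes AT4G25370 and AT4G12060 and the ClpS family adaptor gene AT1G68660 had log2 changes of 0.08 to 0.19 in clpp2-2. In clpp2-1 no partner was called by edgeR, DESeq2 or limma-voom, and none had an unadjusted p under 0.05. Between the lines edgeR and limma-voom called 0 of 7, beside 4.06% and 4.02% of all genes. DESeq2 called 1 of 7, as higher, beside 8.1% of all genes (4.74% higher). By edgeR 2 had an unadjusted p under 0.05.

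The genes whose pattern was most like that of CLPP1 over the 9 libraries, by Pearson's r of log2 CPM among 18071 genes with a mean of at least 1 CPM, were AT2G07806 (0.99), the plastid gene ATCG00840 (0.99), APG10 (0.98), AT1G67360 (0.98) and AT5G16040 (0.98). The first of them, at chr2:3484627-3489670, matches mitochondrial DNA at 99.9% identity over its length, so its reads and those of the mitochondrial genome cannot be told apart. CLPP4 was the core member nearest to CLPP1, at rank 177. For the mean of the 8 nuclear members the most alike were PGK1 (0.99), a plastid phosphoglycerate kinase, PDE329 (0.98), PDH-E1 ALPHA (0.97), a subunit of the plastid pyruvate dehydrogenase, FSD1 (0.97), an iron superoxide dismutase, and ACD1-LIKE (0.97). CLPP1 ranked 1349 in that list, with r = 0.78. When each library was left out in turn, AT2G07806, ATCG00840, PGK1 and PDE329 kept a place among the top 5 in 9 of 9 cases, APG10 in 4, AT1G67360 in 3, PDH-E1 ALPHA and ACD1-LIKE in 2, AT5G16040 in 1 and FSD1 in 0.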

How the data were processed

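RNA abundance was read from one table of 9 libraries. As deposited by the authors, it holds expected counts, that is estimated counts per gene rounded to whole numbers. Per the submitters' processing notes FastQC, Salmon 0.14.0, DESeq, DESeq2 and TAIR10 were used; what each did is not stated. The totals per library, 36043744 to 36477053, lie so close together that scaling before deposit is possible. At the smallest member count, 1928, counting error alone was 2.28%. The 9 genes, the gene lists and the tests were chosen with earlier results of these data known.

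All 9 libraries entered 1 quasi-likelihood fit in edgeR 4.0.16 (R 4.3.3): filterByExpr left 20294 of 22254 genes, TMM factors ran from 0.974 to 1.025, and p-values were adjusted by Benjamini-Hochberg over all genes of a contrast at 0.05. SE is the absolute log2 change over the root of F, and the common biological coefficient of variation was 0.176. Log2 CPM used a prior count of 2. The CLPP1 share was tested by exact permutation in SciPy 1.17.1. Scripts were tested on simulated data. Positions and products are from RefSeq TAIR10.1. Motif searches, codon alignment and levels per kilobase are descriptions with no test.

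The rule for named genes takes CLPP2, all core, partner and mitochondrial Clp genes, called genes of the plastid protease and chaperone lists, and the 5 genes most correlated with CLPP1 and with the nuclear mean. Alternatives were DESeq2 size factors, no filter, DESeq2 1.42.0, limma-voom (limma 3.58.1), the replicate block, only the groups compared, library sizes without organelle genes and each library left out. Leaving out wt 1 with clpp2-1 1, and edgeR without robust estimation, were added after seeing the data.

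The labels number replicates 1 to 3 in each genotype without saying what a number marks. Deviations of same-numbered libraries from their genotype means correlated at 0.253, 0.21 and 0.115 between clpp2-1 and the wild type over 11806 genes, at 0.061, 0.087 and -0.006 between clpp2-2 and the wild type, and at -0.169, -0.01 and -0.179 between the lines. Libraries of different number correlated at -0.356 to 0.096, -0.118 to 0.07 and -0.016 to 0.174 in the same 3 comparisons. The main fit used no pairing, and the replicate block was run only as an alternative, over all 3 genotypes. With the replicate block 0 core members were called in clpp2-1 and 24 of all genes.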

Additional observations from a re-analysis of the deposited data

Results flagged for a closer look

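Among the Clp and plastid proteolysis genes, 3 differed between the lines themselves (edgeR quasi-likelihood test of clpp2-2 against clpp2-1, adjusted over all genes). They were 1 of 4 listed mitochondrial Clp genes and 2 of 10 plastid proteases outside the Clp system. None of the 7 partners was called. Of all genes tested, 4.06% were called in this comparison, 2.41% higher in clpp2-2. AT1G33360, annotated as an ATP-dependent Clp protease gene, was higher in clpp2-2 by 0.629 on the log2 scale (adjusted p = 0.0211), with 72.9, 73.5 and 76.0 CPM in clpp2-2, 53.0, 43.4 and 47.4 CPM in clpp2-1 and 62.9, 53.4 and 46.5 CPM in the wild type. FTSH1, a thylakoid metalloprotease, was higher in clpp2-2 by 0.252 (edgeR adjusted p = 0.0468). It had 142.2, 156.5 and 153.0 CPM in clpp2-2, 129.7, 125.8 and 123.7 CPM in clpp2-1 and 121.6, 126.8 and 112.6 CPM in the wild type. FTSH5 (VAR1), a subunit of the same complex, was higher in clpp2-2 by 0.31 (edgeR adjusted p = 0.0441). It had 256.1, 266.1 and 263.0 CPM in clpp2-2, 213.1, 223.2 and 197.0 CPM in clpp2-1 and 217.4, 234.4 and 199.7 CPM in the wild type. The calls were lost in 5, 11 and 9 of 18 alternatives for AT1G33360, FTSH1 and FTSH5, among them leaving out any clpp2-2 library. No core member differed between the lines in this test.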

How the results depend on the processing

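Of 639 recomputed log2 changes of core members, 604 kept direction and side of the threshold, 18 newly passed, 4 no longer passed and 13 changed sign, and 12 of the 18 that newly passed came without wt 2. For the core, DESeq2 called 3 members in clpp2-2, 1 in the mean of both and 2 between the lines. With the replicate block 2 were called in clpp2-2 (CLPP1 and CLPP6) and 0 in clpp2-1, where the block changed no core call; without wt 1 and clpp2-1 1 together 0. With 1 library left out, core calls ran from 0 to 0 in clpp2-1, 0 to 7 in clpp2-2, 0 to 5 in the mean of both and 0 to 1 between the lines. Calls over all genes, in the order clpp2-1, clpp2-2, mean of both and between the lines, were 36, 2025, 212 and 823; DESeq2 gave 89, 3373, 1203 and 1760. The block gave 24, 1703, 106 and 519, and wt 1 and clpp2-1 1 left out gave 727 in clpp2-2, 91 in the mean and 342 between the lines. With only the groups compared, 23, 1201 and 1527 genes were called in clpp2-1, clpp2-2 and between the lines. Leaving out 1 library gave 23 to 66, 500 to 4194, 68 to 2143 and 174 to 1472.

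The difference in CLPP1 share (percentage points) crossed 0 when 1 library was left out: -0.0368 to 0.0821 in clpp2-1, -0.037 to 0.0819 in clpp2-2, -0.0369 to 0.082 in the mean of both and -0.0278 to 0.0513 between the lines. As a log2 ratio to the geometric mean of plastid genes it was -0.021 in clpp2-1 and 0.0749 between the lines, opposite in sign to the share. Core changes that crossed 0 with a library left out were all uncalled. In clpp2-1 CLPR3 ran from -0.035 to 0.117, CLPP6 from -0.044 to 0.048, CLPR2 from -0.009 to 0.157 and CLPR1 from -0.03 to 0.119. CLPP3 ran from -0.101 to 0.02 in clpp2-2 and from -0.024 to 0.095 in the mean of both. Without wt 1 and clpp2-1 1 together CLPR3 was -0.002 in clpp2-1 and CLPP3 -0.016 in the mean of both. The cause of these shifts was not tested. Counting error at the smallest member count was 2.28%, and 3 libraries a genotype limit the precision more than depth.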

Other observations

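Some plastid chaperone and protease genes outside the Clp system rose in clpp2-2, where edgeR called 5.47% of all genes higher. Of 8 plastid chaperone genes tested from a list of 9, 5 were called higher: the chaperonin subunits CPN60A (0.39 on the log2 scale, edgeR adjusted p = 0.0303) and CPN60B (0.41, edgeR adjusted p = 0.0336), their co-chaperonin CPN20 (0.30, edgeR adjusted p = 0.0489), the stromal Hsp70 cpHsc70-1 (0.30, edgeR adjusted p = 0.0388) and the stromal Hsp90 AT2G04030 (0.34, edgeR adjusted p = 0.0484). Of 10 plastid proteases outside the Clp system, 3 were called higher in clpp2-2: FTSH1 (0.32), FTSH5 (0.27) and the serine protease DEG2 (0.40). Each of these 8 calls was lost when 1 library was left out, FTSH1 without clpp2-2 2 or clpp2-2 3 and the others also without wt 3 or other libraries, with adjusted p up to 0.0607 for FTSH1 and 0.176 for CPN20. None of either list was called in clpp2-1 by edgeR, DESeq2 or limma-voom, with 1 protease and 0 chaperones at an unadjusted edgeR p under 0.05. The difference between the lines was called for FTSH1 and FTSH5 among these genes. Leaf markers stood at 19970 to 26260 CPM in clpp2-2 and 14270 to 21960 CPM in the wild type, and their part in these changes was not tested.

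Of the mitochondrial Clp genes other than CLPP2, AT1G33360 rose in clpp2-2 (0.45, edgeR adjusted p = 0.0373) and stood at -0.18 in clpp2-1 (edgeR adjusted p = 0.784). The rise was lost in 6 of 18 alternatives, among them leaving out wt 3, clpp2-1 3 or any clpp2-2 library, with an adjusted p up to 0.105. CLPX (AT5G53350) was at -0.06 in clpp2-2, and AT5G49840 was at 0.16 (edgeR adjusted p = 0.063).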
